A study of Mus musculus with 6 samples.

Results

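The immediate early transcription factors of the AP-1 and Egr families were followed in mouse embryonic fibroblasts (MEFs, connective tissue cells cultured from embryos) with and without functional Pax7. Of 10 listed genes (Fos, Fosb, Fosl1, Fosl2, Jun, Junb, Jund, Egr1, Egr2 and Egr3), 9 had a probe set assigned to that gene alone, out of 22180 genes measured in this way. Fosl1 is named only by a probe set shared with Ccdc85b and was not analysed here. Wild type (Pax7+/+) and knockout (Pax7-/-) cells, both of an F1 (C57Bl6N x 129Sv) background, were grown in medium with serum, harvested once confluent, and hybridized to 3 Affymetrix arrays per genotype, numbered as biological replicates 1 to 3. The sources used here do not say how the allele was made, how old the embryos were or what the replicate numbers stand for. The p-values rest on the spread between these samples. Where arrays of equal number are treated as pairs (a block), they rest on the spread of the pair differences. Either spread may be technical. The values are log2 signals, and every difference is knockout minus wild type on the log2 scale. Where 3 values follow each other, they are replicates 1, 2 and 3 in that order.

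AP-1 is a dimer of basic leucine zipper proteins. Fos proteins need a Jun partner to bind DNA, whereas Jun proteins also pair with each other. Egr proteins bind GC-rich DNA through zinc fingers. In fibroblasts, serum and growth factors switch on most of these genes within minutes, through the ERK kinases, serum response factor (SRF) and CREB, and their transcripts decay again quickly, while Jund is expressed more steadily.

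The arrays divided first by replicate number. Both replicate 3 arrays stood apart: they correlated at 0.992 with each other and at 0.814 to 0.844 with the other 4, which correlated at 0.988 to 0.990 among themselves. The interquartile range of log2 signals was 2.98 and 3.02 on the replicate 3 arrays and 1.62 to 1.69 on the others. The 95th percentile of 1390 receptor genes of the olfactory and vomeronasal families served as each array's background level, and lay at 5.34 to 5.44 on replicates 1 and 2 and at 4.63 and 4.65 on replicate 3. The probe set of Pax7 itself read 6.14, 5.65 and 4.88 on the wild type arrays and 6.17, 5.95 and 5.05 on the knockout arrays. It did not separate the genotypes, and whether it reads a part of the gene that the knockout lacks was not tested. The cell type label reads ESCs, whereas the titles name fibroblasts. Of 12 fibroblast markers 11 lay above background on all 6 arrays, with Col1a1 at 10.9 to 11.2. Of 10 pluripotency markers 2 did, Pou5f1 (4.73 to 5.80) and Lin28a. Klf4 lay above background on 4 arrays and Nanog on 2. The other 6, among them Sox2 and Zfp42, lay at or below background on every array.

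Fosb, a partner of Jun proteins that is induced with Fos, was the member with the largest difference between genotypes. Its wild type arrays read 6.74, 6.99 and 7.64 and its knockout arrays 7.56, 7.37 and 8.36. In each replicate the knockout array lay above its wild type partner, by 0.82, 0.38 and 0.72, but the genotypes overlapped, because wild type replicate 3 lay above knockout replicates 1 and 2. The mean difference was 0.64, a 1.56-fold higher signal (SD of the 3 pairs 0.23). With genotype as the only term it did not pass the test (SE 0.37, limma, adjusted p = 1.00). With the replicate number as a block the SE was 0.11 and the 95% interval 0.40 to 0.88, and the gene was again not called over all 22180 genes (limma, adjusted p = 0.107, unadjusted p = 0.000202, 42nd smallest of all genes). It was called when genes not above background on at least 3 arrays were left out (limma with the block, adjusted p = 0.0467 over 11037 genes, of which 42, or 0.381%, were called). The size without replicate 1, 2 or 3 was 0.55, 0.77 and 0.60 with the block (adjusted p = 0.0970 to 0.335).

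Fos, the founding member of its family, followed with a smaller difference. Its wild type arrays read 6.23, 6.45 and 7.89 and its knockout arrays 6.64, 6.51 and 8.14. The knockout array was higher in each replicate, by 0.42, 0.06 and 0.25, and the replicate 3 arrays of both genotypes lay well above all others. The mean was 0.24 (SE 0.63 without and 0.10 with the block, 95% interval 0.02 to 0.47, limma adjusted p = 0.710 with the block). Without replicates 1, 2 and 3 it was 0.16, 0.34 and 0.24.

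The upstream sequences of these 2 genes, which had the smallest p-values among the members, are shown because serum-responsive elements can lie close to the start of such genes. They are the 250 bases before the RefSeq start in GRCm38.p6, at chr7:19310046-19310295 on the minus strand for Fosb and chr12:85473640-85473889 on the plus strand for Fos. Capitals mark matches on either strand to TGACG (the core of the element bound by CREB and ATF proteins, which also lies within TGACGTCA), to GCGNGGGCG (bound by Egr proteins) and to TATAAA.

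Fosb: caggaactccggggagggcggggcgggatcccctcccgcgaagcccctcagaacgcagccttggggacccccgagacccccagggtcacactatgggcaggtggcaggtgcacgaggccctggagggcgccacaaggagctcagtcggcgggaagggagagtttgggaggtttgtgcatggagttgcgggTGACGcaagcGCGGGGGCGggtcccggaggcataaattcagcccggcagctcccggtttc

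Fos: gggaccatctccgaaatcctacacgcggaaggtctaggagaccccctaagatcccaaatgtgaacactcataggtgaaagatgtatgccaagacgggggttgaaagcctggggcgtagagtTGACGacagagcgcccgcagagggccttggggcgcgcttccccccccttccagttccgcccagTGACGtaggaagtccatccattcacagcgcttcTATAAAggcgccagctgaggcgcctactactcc

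Fosb held TGACG once, at 60 to 56 bases before the start, followed by GCGNGGGCG at 50 to 42. Fos held TGACG at 129 to 125 and at 66 to 62 bases before the start, and TATAAA at 33 to 28. Of 32851 windows of this length in the table, 17.8% held TGACG, 4.70% GCGNGGGCG and 12.4% TATAAA. Of the 9 members, 7 had at least 1 window in the table, 11 windows in all, and Egr1 and Egr3 had none. TGACG was also found before Junb and in the 3 overlapping windows of Egr2, and GCGNGGGCG before Fosl2. Within the members' windows, the CArG box, the motif bound by SRF (1.47% of windows), was found only before Egr2. It lay in 4 of the 5 windows of Egr2, of which 3 overlap and share the match. TGACGTCA (1.55% of windows) and the AP-1 site TGACTCA (4.46%) were found in none of the members' windows. These matches describe letters in a short window and were not tested against the signals.

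Fosl2, which encodes Fra-2, a Fos relative with slower kinetics, was the only member lower in all 3 pairs. It read 7.95, 8.09 and 9.35 on the wild type arrays and 7.89, 7.98 and 9.35 on the knockout arrays. The differences were -0.07, -0.11 and -0.002, so the genotypes lay together on every replicate. The mean was -0.06 (SE 0.09 with the block, 95% interval -0.26 to 0.14, limma adjusted p = 0.945).

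**Figure D1:**
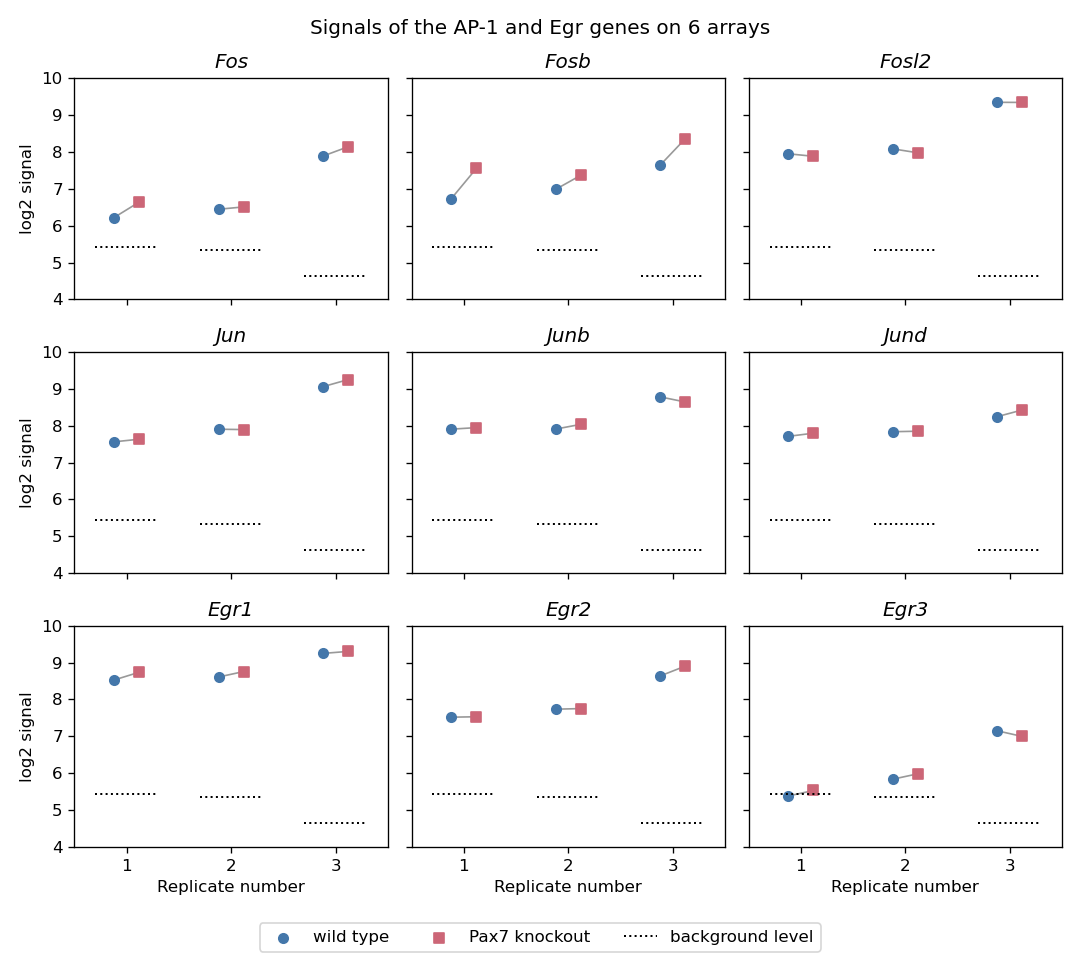
Log2 signal of each measured AP-1 and Egr gene by replicate number, with wild type as circles, Pax7 knockout as squares, a line joining arrays of equal number and the background level dotted. Fosb is the gene whose knockout arrays lie visibly above their partners (0.82, 0.38 and 0.72), and all 9 genes are highest on replicate 3 within each genotype.

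The Jun family, whose products are the obligate partners of Fos proteins, showed differences near 0. Jun, the main activating partner, read 7.56, 7.91 and 9.06 on the wild type arrays and 7.63, 7.90 and 9.25 on the knockout arrays. Its pairs differed by 0.07, -0.01 and 0.19, with a mean of 0.08 (SE 0.09 with the block, 95% interval -0.12 to 0.29). Junb, a weaker activator that can restrain Jun, read 7.91, 7.91 and 8.78 on the wild type arrays and 7.95, 8.04 and 8.65 on the knockout arrays. Its pairs had mixed signs, 0.04, 0.13 and -0.14, with a mean of 0.01 (SE 0.10, 95% interval -0.20 to 0.23). The limma adjusted p with the block was 0.913 for Jun and 0.994 for Junb.

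Jund, the steadily expressed Jun protein, had 2 probe sets, of which that with the higher mean was used. It read 7.71, 7.84 and 8.25 on the wild type arrays and 7.80, 7.85 and 8.43 on the knockout arrays. The knockout was higher in each pair, by 0.09, 0.01 and 0.18 (mean 0.09, SE 0.09 with the block, 95% interval -0.11 to 0.30, limma adjusted p = 0.900). The other probe set read 6.28, 6.21 and 6.13 on the wild type arrays and 6.43, 6.20 and 6.36 on the knockout arrays. It gave pair differences of 0.15, -0.02 and 0.23, so the sizes were similar but the sign in replicate 2 was opposite. The probe sets also disagreed on replicate 3: the one used was higher there than on replicates 1 and 2 by 0.47 in wild type and 0.60 in the knockout, and the other by -0.11 and 0.05.

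Among the Egr genes, Egr1, a zinc finger factor rapidly induced by ERK signalling, was higher in the knockout in each pair. It read 8.53, 8.61 and 9.25 on the wild type arrays and 8.74, 8.76 and 9.30 on the knockout arrays. The pairs differed by 0.21, 0.15 and 0.05, with a mean of 0.14 (SE 0.09 with the block, 95% interval -0.07 to 0.34, limma adjusted p = 0.835). The genotypes overlapped, since wild type replicate 3 lay above knockout replicates 1 and 2.

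Egr2, also known for its part in myelination and hindbrain patterning, read 7.52, 7.74 and 8.64 on the wild type arrays and 7.53, 7.75 and 8.90 on the knockout arrays. Its pairs differed by 0.01, 0.02 and 0.27, so that its mean of 0.10 (SE 0.10, 95% interval -0.12 to 0.32) came almost wholly from replicate 3, and was 0.01 without it. Egr3, known from muscle spindles and activated lymphocytes, was the member closest to background. It read 5.38, 5.84 and 7.15 on the wild type arrays and 5.53, 5.98 and 7.00 on the knockout arrays, with wild type replicate 1 just below the background level of that array. Its pairs differed by 0.15, 0.15 and -0.15 (mean 0.05, SE 0.10, 95% interval -0.18 to 0.27). The limma adjusted p with the block was 0.900 for Egr2 and 0.969 for Egr3.

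**Figure D2:**
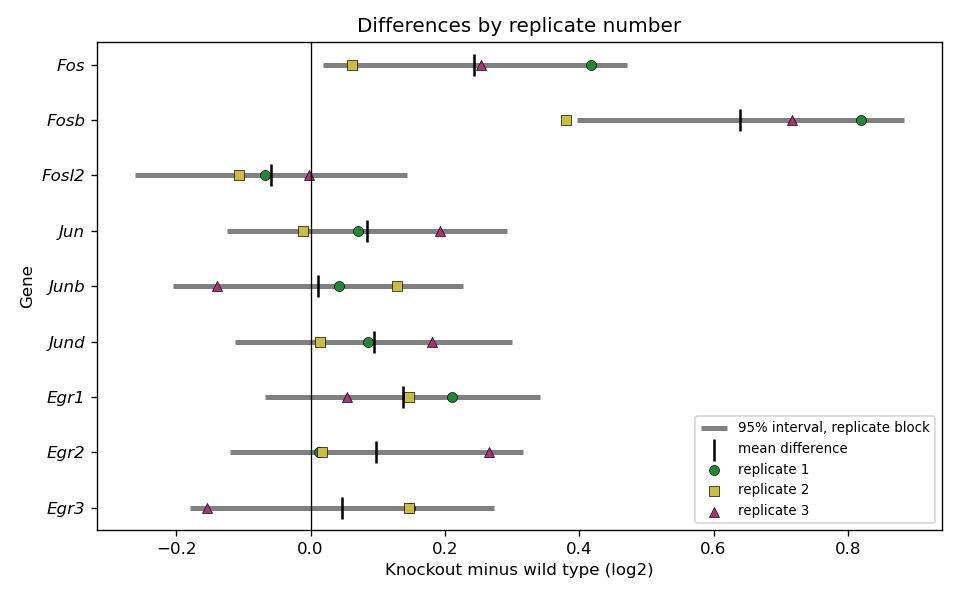
Knockout minus wild type log2 differences of each gene in replicates 1, 2 and 3 (symbols), their mean (tick) and the 95% interval of the fit with the replicate number as a block (bar). The intervals of Fosb (0.40 to 0.88) and Fos (0.02 to 0.47) lie above 0 before adjustment over all genes, and those of the other 7 genes span it.

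Over the family as a whole, 5 of the 9 measured members were higher in the knockout in all 3 pairs (Fosb, Fos, Jund, Egr1 and Egr2), 1 was lower (Fosl2) and 3 had mixed signs. Of all genes tested, 13.8% were higher and 13.8% lower in all 3 pairs. These counts depend on how replicates 1 and 2 are matched, which the data do not settle. Knockout replicate 1 lay below wild type replicate 2 for Jund (7.80 and 7.84) and Egr2 (7.53 and 7.74). For Fosl2, knockout replicate 2 lay above wild type replicate 1 (7.98 and 7.95). Matched that way, these genes would have mixed signs, while Fosb, Fos and Egr1 would stay higher. After quantile normalization, which gives all arrays one distribution, Jun joined the higher genes (0.01, 0.06 and 0.23) and Egr2 left them (-0.03, 0.09 and 0.31), and with the mean of its probe sets Jund had mixed signs. None of the 9 had genotypes without overlap, against 1.41% of all genes. The median difference of the members was 0.09, against -0.00 over all genes, whose 5th and 95th percentiles were -0.21 and 0.20. The pair medians of the members were 0.09, 0.06 and 0.18 in replicates 1, 2 and 3. With genotype as the only term limma called 0 members and 0% of all genes (15 genes, none of them a member, had an unadjusted p under 0.05). With the replicate block it called 0 members and 0.0766% of genes. An unadjusted p under 0.05 with the block was reached by 2 members, Fosb and Fos, both higher, as it was by 3.28% of all genes in that direction and by 3.45% as lower. The block narrowed the SE of the members from 0.26 to 0.63 down to 0.09 to 0.11.

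All 9 members had a higher signal on replicate 3 than on replicates 1 and 2, in both genotypes. The excess ran from 0.47 for Jund to 1.57 for Fos, and its median over members was 1.14. Over all genes the median was -0.11, and 42.8% were higher on replicate 3 in both genotypes. Among the 8404 genes above background on all 6 arrays, which include every member but Egr3, these values were 0.82 and 69.4%. This direction depended on the scale. After quantile normalization only Fos (0.41 in wild type and 0.34 in the knockout), Fosl2 (0.16 and 0.20), Jun (0.06 and 0.26) and Egr3 (0.87 and 0.55) were higher on replicate 3. The other 5 members were lower, down to -0.81 for Jund in wild type. The genotype difference of Fosb within pairs was 0.82, 0.46 and 0.61 on that scale.

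**Figure D3:**
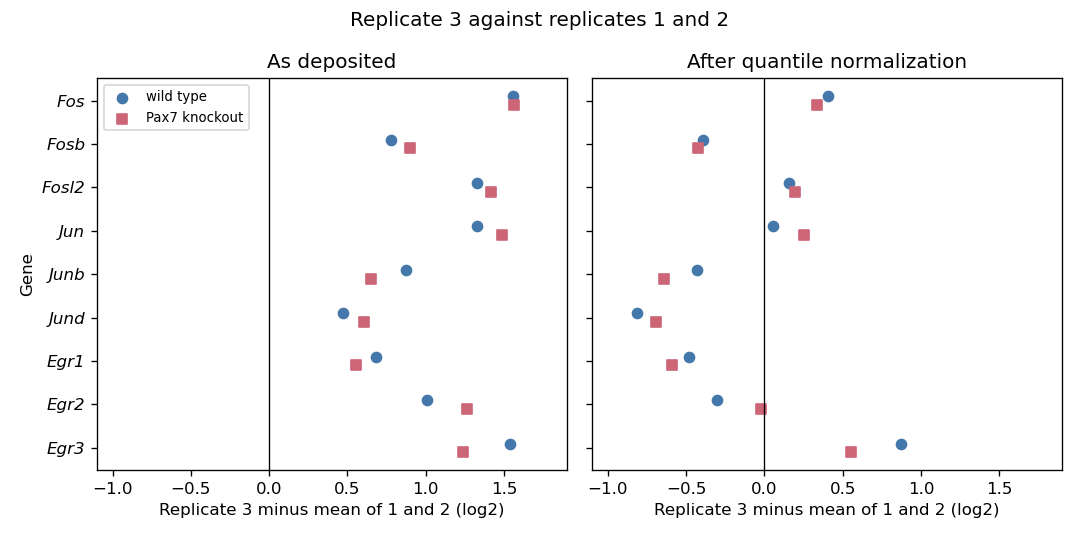
Log2 signal of replicate 3 minus the mean of replicates 1 and 2 for each gene, in wild type (circles) and Pax7 knockout (squares), as deposited on the left and after quantile normalization on the right. All genes lie right of 0 as deposited, and 4 of 9 (Fos, Fosl2, Jun and Egr3) do after quantile normalization.

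Members were also compared by the shape of their profile over the 6 arrays, as the root mean square (RMS) difference of log2 signals centred on each gene's mean. The replicate 3 divide and the genotype difference are both part of every profile compared. A gene chosen as near to Fosb is thus likely to share its direction between genotypes. Among members, Jund and Egr1 were closest (RMS 0.08) and Fos and Jund farthest apart (0.49). Over all named genes, those nearest to Fosb were Dusp1 (RMS 0.10), Specc1 (0.10) and Serinc2 (0.11). Those nearest to Fos were Arfrp1 (0.04), Amot (0.05) and Traf7 (0.06), and those nearest to Egr1 were Gdf11 (0.03), Aup1 (0.03) and Glcci1 (0.04).

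Dusp1, the gene nearest to Fosb in profile, encodes a phosphatase that inactivates MAP kinases and is itself an immediate early gene. It read 9.04, 9.23 and 10.03 on the wild type arrays and 9.74, 9.71 and 10.45 on the knockout arrays. The knockout was higher in each pair, by 0.70, 0.48 and 0.42, a direction partly set by the choice of Dusp1 through the Fosb profile. Its mean was 0.53 (SE 0.10 with the block, limma adjusted p = 0.150, or 0.0754 without genes at background), and it was not called.

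The wider pathway was described with 7 further lists holding 106 measured genes. None of the 106 was called, with the block or without it (smallest adjusted p with the block 0.150, limma). With the block, 11 were higher and 8 lower at an unadjusted p under 0.05, where 3.28% and 3.45% of all genes were. In all 3 pairs 23 were higher and 18 lower, where 13.8% of all genes lay in each direction, and their median difference was 0.02. The shares of all genes include those at or below background, 42.0 to 55.2% on each array. For these counts, shares among genes above background were not computed. Of 12 AP-1 dimer partners, 3 were higher and 3 lower in all pairs. Mafk, a small Maf protein without an activation domain, was at 0.28 (0.29, 0.37 and 0.20 in replicates 1, 2 and 3), and Jdp2, which dimerizes with Jun and represses AP-1 sites, at -0.27 (-0.38, -0.27 and -0.15).

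Of 3 Egr relatives and corepressors none had 1 sign in all pairs. Egr4 was at -0.02 and Nab1, a corepressor of Egr proteins, at 0.01. Of 15 upstream kinases and transcription factors, 2 were higher and 1 lower in all pairs. Creb1, which encodes CREB, was at -0.22 (-0.14, -0.31 and -0.21), and Map2k1, which encodes the ERK kinase MEK1, at 0.20 (0.40, 0.02 and 0.19).

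Of 32 other immediate early genes, 7 were higher and 6 lower in all pairs, with a median of 0.02, so they had no common direction. Nr4a1, an orphan nuclear receptor induced by serum, was at -0.37. It read 9.38, 9.58 and 10.33 on the wild type arrays and 9.02, 9.10 and 10.07 on the knockout arrays, lower in each pair and thus opposite in sign to Fosb (SE 0.09 with the block, limma adjusted p = 0.406). Plk2, a kinase of the polo family, was at 0.36, with 0.73 in replicate 1 and 0.18 and 0.17 in replicates 2 and 3. Without replicate 1 its difference was 0.17.

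Of 14 genes of ERK feedback, 4 were higher and 3 lower in all pairs. Besides Dusp1 there was Spry1, which encodes a Sprouty inhibitor of receptor kinase signalling, at -0.46 (-0.45, -0.52 and -0.40; limma adjusted p = 0.184 with the block). Of 19 AP-1 target genes, 5 were higher and 2 lower in all pairs. Hbegf, a ligand of the EGF receptor, read 8.27, 8.12 and 9.74 on the wild type arrays and 8.81, 8.67 and 10.15 on the knockout arrays. Its pairs differed by 0.54, 0.55 and 0.40 (mean 0.50, SE 0.09 with the block, limma adjusted p = 0.153). Ccl2, a chemokine, was at -0.43 (-0.23, -0.62 and -0.44; adjusted p = 0.362). Of 11 Egr target genes, 2 were higher and 3 lower in all pairs. Ndrg1 was at -0.31 and Vegfa, the endothelial growth factor, at 0.31, with -0.01 in replicate 2.

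**Figure D4:**
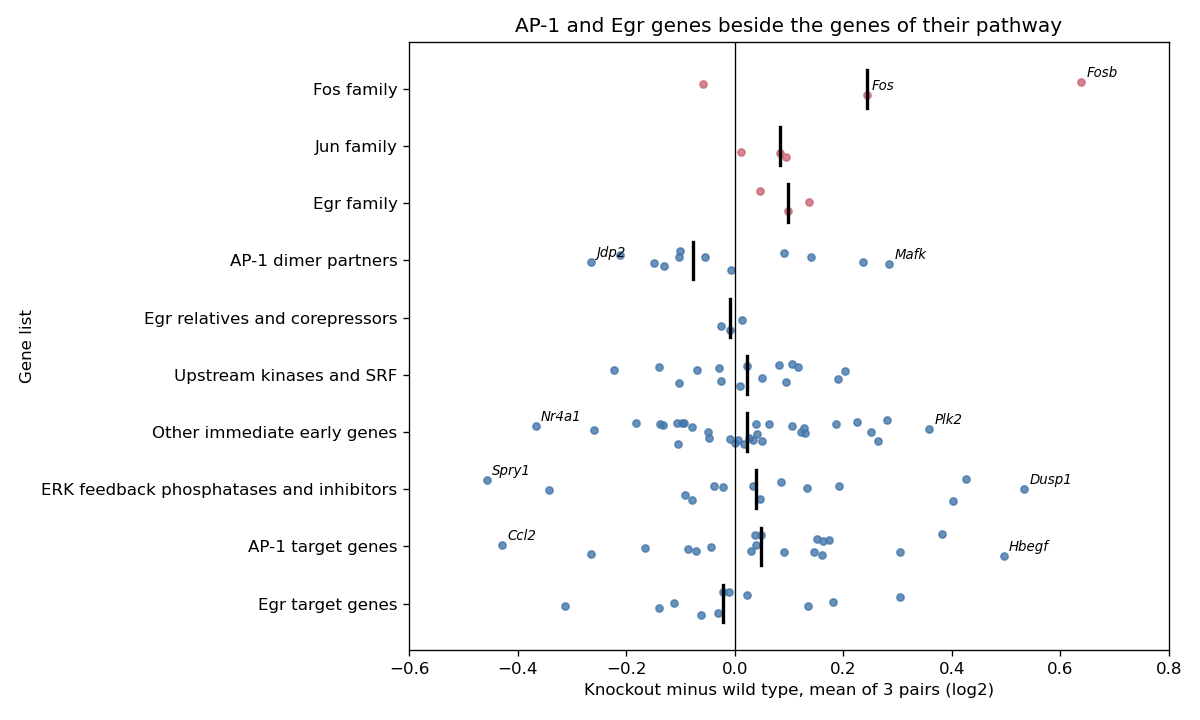
Mean knockout minus wild type log2 difference over the 3 pairs for each gene (points) of the Fos, Jun and Egr families (red) and of 7 pathway lists (blue), with the median of each list as a black bar. Fosb (0.64) lies farthest from 0, followed by Dusp1 (0.53) and Hbegf (0.50) on the higher side and Spry1 (-0.46) on the lower side.

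Markers of other cell types differed in how many lay above background on all 6 arrays. Of 7 endothelial markers none did and 5 lay at or below it on all, among them Pecam1, while Cdh5 lay above it on 5 arrays and Emcn on 1. Of 8 macrophage markers 3 did, Csf1r, Cx3cr1 and C1qa. Cd68 lay above it on 4 arrays, Tyrobp on 3 and Adgre1 on 2, while Ptprc and Itgam lay at or below it on every array. Of 6 epithelial markers 3 did, the keratins Krt8 and Krt18 and the adhesion molecule Epcam, and 1 lay at or below it on all. Of 7 neural markers 2 did, the tubulin Tubb3 (6.10 to 8.57) and Nes, an intermediate filament of neural and other progenitors (6.49 to 8.40), and none lay at or below it on all.

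The mean signal over the macrophage list was 5.05 to 5.48 in wild type and 5.05 to 5.50 in the knockout, and over the endothelial list 4.19 to 4.88 and 4.34 to 4.90. The epithelial list had a median difference of 0.00 and mean signals of 4.84 to 5.67 in wild type and 4.86 to 5.61 in the knockout. The neural list (5.70 to 5.94 and 5.84 to 6.07) had a median of 0.08, with 1 of 7 higher in all pairs, Nes, at 0.45 (0.44, 0.29 and 0.62). The fibroblast list had a median of -0.12 and mean signals of 9.14 to 9.87 in wild type and 8.93 to 9.55 in the knockout. Of its 12 genes 8 were lower and 1 higher in all pairs (13.8% of all genes each way), 5 were lower at an unadjusted p under 0.05 with the block (3.45% of all genes), and none was called. Among these 5 were the matricellular Postn (-0.43) and the collagen Col3a1 (-0.40). The proteoglycan Lum had a fitted difference of -1.16, larger in size than that of Fosb (limma with the block, adjusted p = 0.127). It lay above background only on replicate 3 of each genotype, at 7.08 in wild type and 5.13 in the knockout. The part of these marker differences in the values of Fosb was not tested. In cultures measured as bulk RNA, fewer cells of a type and less RNA per cell cannot be told apart.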

How the data were processed

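Total RNA of 6 MEF samples was measured on Affymetrix arrays. Per probe set, the authors deposited log2 signals made with Partek and RMA (background correction, normalization and probe summary), per the submitters' processing notes. The sources used here give no version, setting or genome build. The log base was inferred from RMA and from values between 2.60 and 12.9. Of 41345 probe sets, the platform annotation gave 1 gene for 23521, several for 1814, and did not list 16010. Only those with 1 gene were used, and for 1082 genes with several the probe set of highest overall mean was kept.

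Genotypes were compared in limma 3.58.1 (R 4.3.3, lmFit and eBayes, two-sided, Benjamini-Hochberg over all genes, threshold 0.05) with genotype as the only term, and with the replicate number as a block. Deviations of equal-numbered arrays from their genotype mean correlated at 0.920, 0.895 and 0.973 for replicates 1, 2 and 3, above the bound of 0.1, so blocked values are printed. This pairing comes from the data. Unequal numbers 1 and 2 correlated at 0.910 and 0.898, below the equal-numbered value of replicate 1 and above that of replicate 2. The pairing thus rests on replicate 3, and the data do not settle how replicates 1 and 2 are matched. Members and lists were chosen with earlier results of these data known. Marker genes are named as defining genes of a type or after their values were seen. All members are named, with up to 3 called genes of each of the 7 pathway lists, or the 2 of smallest p with the block where none was called, and the 3 genes nearest in profile to Fos, Egr1 and Fosb. List members without a usable probe set were not analysed here. Promoter sequences are from RefSeq, GRCm38.p6, and were matched by symbol. The number of arrays limits the precision.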

Additional observations from a re-analysis of the deposited data

How the results depend on the processing

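With the replicate block, 17 genes were called in place of 0, and a batch block that sets replicate 3 against the other 2 gave 19. With the block there were 42 after genes at background were left out, 15 after quantile normalization, 16 with the mean of a gene's probe sets, and 46 with a variance trend and robust settings. Leaving out a replicate number with the block gave 98, 2 and 4 without replicates 1, 2 and 3, and leaving out 1 array without it 0. Of the members, 1 (Fosb) was called with the block after that filter (11037 genes tested) and 0 under each other setting run. The adjusted p of Fosb was 0.0516 with the trend and block, and 0.0860 with the batch block.

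The median member difference was -0.28 to 0.43 when 1 array was left out, which leaves replicate 3 unevenly shared, and 0.09 to 0.13 when a replicate number was left out with the block. With pairs formed by equal replicate number, the count of members with 1 sign in the 3 pairs was 6. It was also 6 after the filter and after quantile normalization, and 5 with the mean of probe sets. Among single members, no sign of the mean difference changed in settings that kept all arrays (90 values). Most of these values could not change, because blocks, the filter and the trend leave the mean difference as it is in this balanced layout. Only quantile normalization and, for Jund, the mean of probe sets could move it. With 1 array left out, the ranges were -0.28 to 0.76 for Fos, 0.34 to 0.90 for Fosb, -0.53 to 0.39 for Fosl2, -0.41 to 0.53 for Jun, -0.21 to 0.30 for Junb, -0.11 to 0.25 for Jund, -0.048 to 0.36 for Egr1, -0.32 to 0.43 for Egr2 and -0.37 to 0.56 for Egr3. With the block and a replicate number left out, the signs of Junb (-0.005 and -0.048 without replicates 1 and 2) and Egr3 (-0.004 and -0.003) changed. Those of the other 7 members did not.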
